A study of Mus musculus with 2 samples.

Results

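The class I and class II cytokine receptor chains described here are the products of 10 mouse genes: Il4ra, Il7r, Il21r, Il9r, Il6ra, Il6st, Il27ra, Il12rb1, Il10ra and Il10rb. They were chosen by gene symbol, as chains of interleukin receptors outside the interleukin-2 and interleukin-1 receptors, and all 10 were found among the 55536 genes of the deposited gene tables. Of these, 8 are class I chains and Il10ra and Il10rb are class II chains. The question put to the data was which receptors have both of their chains expressed.

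The study sequenced polyadenylated RNA of activated regulatory T cells from a male mouse aged 4 months of the strain Foxp3CreERT2 x Rosa26YFP, in which the Foxp3 locus drives an inducible Cre and the Rosa26 locus carries a yellow fluorescent reporter. The labels list 2 libraries, technical replicates 1 and 2 of biological replicate 1, here called library 1 and library 2, and they form 1 group with no control or second condition. Means, SDs and tests therefore describe 2 libraries of 1 biological sample, and they hold no information on the spread between animals. The sources used here do not say how the cells were isolated or stimulated, or whether the mouse received an inducer.

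Class I and class II cytokine receptors have no kinase activity of their own. In many of them, binding of the cytokine brings a private chain together with a shared chain. Janus kinases bound to cytoplasmic tails of the receptor then phosphorylate it and STAT transcription factors. A response usually draws on both chains of a pair. Whether the cells respond to any of these cytokines was not tested. In regulatory T cells such receptors are known to carry survival signals, signals for effector function, and inflammatory signals that work against the regulatory programme.

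Class I chains are recognised by a WSXWS box in the extracellular part, next to the membrane in many chains. The longest reading frame of each gene in GENCODE M21 was searched for this box, and 7 of the 10 chains held it, against 0.324% of 21901 protein-coding genes whose longest frame was searched the same way. The exact letters were not found in Il27ra, Il10ra or Il10rb. The coding-strand sequences are given because they mark these 7 genes as members of 1 family. They run 5′ to 3′ on mm10 from GENCODE M21 transcripts, with the 15 bases that encode the box in capitals and 15 bases on each side. Il4ra is at chr7:125571539-125571583 (plus strand), Il7r at chr15:9511136-9511180 (minus), Il21r at chr7:125628983-125629027 (plus), Il9r at chr11:32193196-32193240 (minus), Il6ra at chr3:89885915-89885959 (minus), Il6st at chr13:112490582-112490626 (plus) and Il12rb1 at chr8:70813727-70813771 (plus).
Il4ra: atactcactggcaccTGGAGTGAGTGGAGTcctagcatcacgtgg
Il7r: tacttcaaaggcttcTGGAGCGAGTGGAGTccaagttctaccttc
Il21r: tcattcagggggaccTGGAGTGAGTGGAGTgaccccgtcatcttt
Il9r: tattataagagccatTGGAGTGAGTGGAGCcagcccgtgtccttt
Il6ra: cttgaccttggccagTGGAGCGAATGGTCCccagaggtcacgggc
Il6st: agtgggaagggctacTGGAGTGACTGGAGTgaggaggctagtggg
Il12rb1: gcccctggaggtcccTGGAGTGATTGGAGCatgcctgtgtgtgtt

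In Il4ra, Il7r, Il21r and Il9r the box ended 16 to 24 residues before the most hydrophobic stretch of 19 residues, which is taken here as the membrane-spanning stretch. In Il6ra it ended 62 residues before that stretch, and in Il6st and Il12rb1, whose extracellular parts are longer, 306 and 320 residues before it. The YXXQ motif, the docking site through which gp130 recruits STAT3, occurred after the membrane stretch 4 times in Il6st, 3 times in Il10ra and 1 time each in Il21r and Il9r. Anywhere in the frame it occurred in 7 of the 10 chains and in 39.7% of the 21901 genes.

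All 10 chains were expressed at 1 TPM (a level scaled by transcript length and library) or more in both libraries, where 46.2% of 22028 protein-coding genes reached that level. A level of 10 TPM in both was reached by 9 chains (29.5% of protein-coding genes), and 100 TPM by Il7r and Il27ra. The median over the 10 chains was 45.8 TPM, beside 18.1 TPM over the protein-coding genes that reached 1 TPM. The 10 genes were chosen with earlier results of these data known, so these comparisons are descriptions and not tests. A low level in RNA from many cells can come from few cells or from little RNA in each cell, and these cannot be told apart here. The libraries held 15076048 and 14635787 gene reads. All 8 T cell and regulatory T cell markers checked, Foxp3, Il2ra, Ctla4, Ikzf2, Cd3e, Cd3g, Cd4 and Trac, were at 20.9 TPM or more. Foxp3 was the lowest of them, at 23.8 and 20.9 TPM, and Trac the highest, at 2729 and 2761 TPM. Of 34 markers of 7 other cell types, 4 reached 1 TPM in both libraries (Cd79a, Zbtb46, Klrb1c and Cd8b1) and 9 had no reads, among them Cd14, Itgax, Siglech and Ncr1. Their TPM summed to 24.1 and 30.1 over all 34, against 5535 and 5799 for the 8 T cell markers. The highest of the 34 was Cd8b1, at 9.94 and 14.8 TPM, above Il9r in both libraries. The other CD8 T cell marker, Cd8a, was at 1.43 and 0.79 TPM. How far these other markers bear on the receptor levels was not tested.

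**Figure D1:**
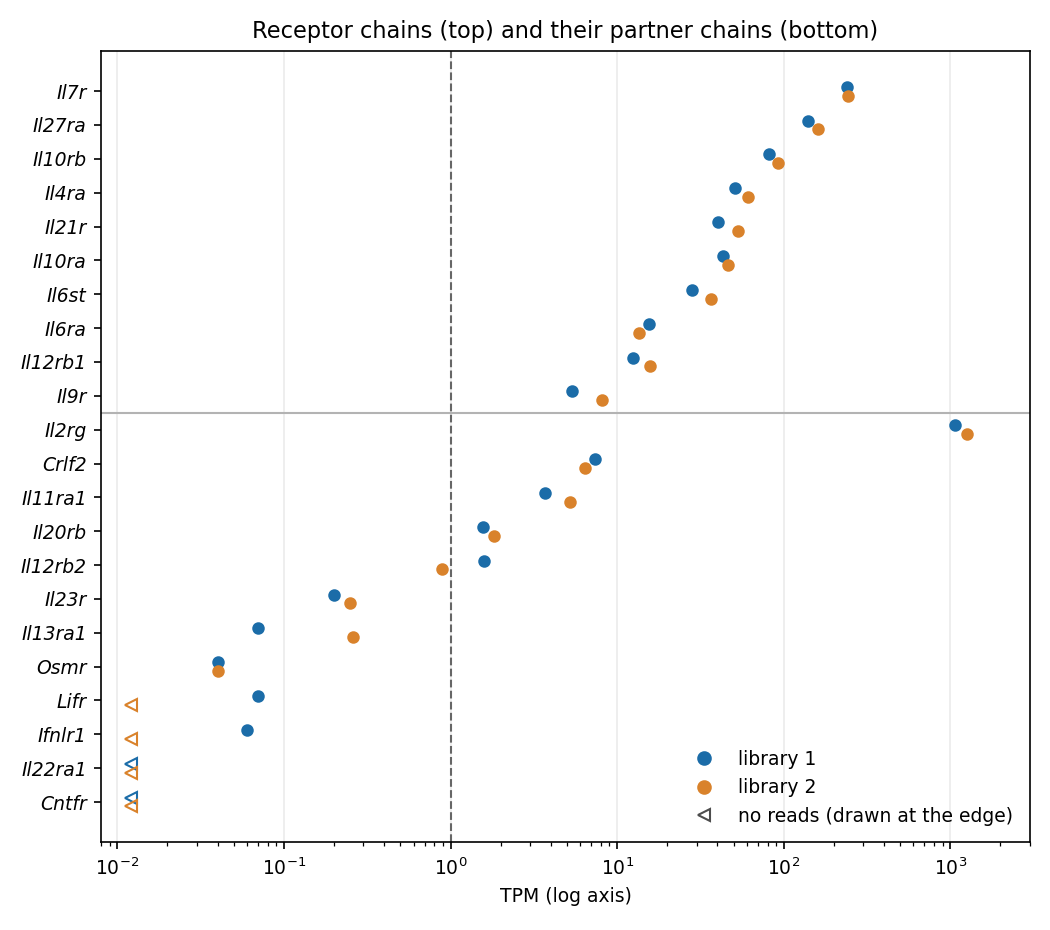
TPM on a log axis of the 10 receptor chains (above the grey line) and of 12 chains listed as partners (below it), with 1 point for each library and a dashed line at 1 TPM. Of these 12, Il20rb is in none of the 17 receptor pairs examined. All 10 receptor chains lie right of the line in both libraries, from Il9r at 5.34 and 8.07 TPM to Il7r at 239 and 243 TPM, whereas most partner chains lie left of it.

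The private chains that pair with the common gamma chain, Il2rg, spanned a wide range of levels. Il7r, the alpha chain of the interleukin-7 receptor and a survival receptor of T cells, was the highest of the 10 chains (ENSMUSG00000003882.5, chr15:9505788-9530176, minus strand). It was at 239 TPM in library 1 and 243 TPM in library 2, from 8506 and 7630 reads, with a mean of 241 ± 2.66 TPM (SD, n = 2 technical libraries), above 97.7% of protein-coding genes. The libraries differed by little beside the distance to any other chain.

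Il4ra, the chain that binds interleukin-4 (ENSMUSG00000030748.9, chr7:125552120-125579474, plus strand), was at 51.25 and 61.4 TPM from 1860 and 2343 reads (56.3 ± 7.17 TPM). Il21r, which binds interleukin-21 (ENSMUSG00000030745.9, chr7:125603429-125633570, plus strand), was at 40.5 and 53.0 TPM from 1148 and 1401 reads (46.7 ± 8.82 TPM). These genes are neighbours on chromosome 7, on the same strand, with 23954 bases and no annotated gene between them. Their levels overlapped, since the higher library of Il21r lay above the lower library of Il4ra. Il9r, the chain for interleukin-9 (ENSMUSG00000020279.10, chr11:32187541-32200279, minus strand), was the lowest of the 10 chains at 5.34 and 8.07 TPM from 196 and 239 reads (6.71 ± 1.93 TPM). It was still above 65.2% of protein-coding genes.

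The shared partner of these chains was far more abundant than any of them. Il2rg was at 1066 and 1258 TPM (1162 ± 136 TPM), so its level was 4.46 and 5.19 times that of Il7r, 20.8 and 20.5 times that of Il4ra, 26.3 and 23.8 times that of Il21r, and 200 and 156 times that of Il9r in libraries 1 and 2. In TPM the private chain was thus the scarcer one in each of the 4 pairs with the common gamma chain, in both libraries. In a second deposited table of whole-number counts, taken per kilobase, these ratios were far smaller: the log2 ratio of private chain to Il2rg was -0.50 for Il4ra (-4.37 in TPM), -0.56 for Il21r (-4.64) and -4.01 for Il9r (-7.46), and for Il7r the order was the opposite, at 0.54 (-2.27). The interleukin-4 type I, interleukin-7, interleukin-21 and interleukin-9 receptors were complete, meaning that both chains reached 1 TPM in both libraries.

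Other uses of the same private chains differed from each other. Crlf2, which joins Il7r in the receptor for thymic stromal lymphopoietin (TSLP), was at 7.41 and 6.44 TPM (6.93 ± 0.686 TPM, 98 and 83 reads), and this pair was complete, with Il7r 32.2 and 37.7 times higher than Crlf2. Il7r was therefore the scarcer chain beside Il2rg and the more abundant chain beside Crlf2. Il13ra1, which joins Il4ra in the type II receptor for interleukin-4 and interleukin-13, was at 0.07 and 0.26 TPM from 3 and 11 reads, so the type II receptor was incomplete. The decoy receptor for interleukin-13, Il13ra2, had no reads.

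Among the chains of the interleukin-6 family Il27ra was high, Il6st intermediate and Il6ra low. Il27ra, the private chain for interleukin-27 (ENSMUSG00000005465.9, chr8:84030294-84042589, minus strand), was the second highest of the 10 chains at 140.0 and 160.5 TPM from 4086 and 4463 reads (150 ± 14.5 TPM). Il6st, which encodes gp130, the signalling chain shared by the family (ENSMUSG00000021756.12, chr13:112464070-112510086, plus strand), was at 28.3 and 36.7 TPM from 1763 and 1908 reads (32.5 ± 5.94 TPM). Il6ra, the private chain for interleukin-6 (ENSMUSG00000027947.11, chr3:89864059-89913196, minus strand), was at 15.55 and 13.6 TPM from 841 and 706 reads (14.6 ± 1.40 TPM). It was the only chain of the 10 with a lower TPM in library 2.

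Both the interleukin-6 and the interleukin-27 receptor were complete, with the shared chain on opposite sides. Il6st was 1.82 and 2.71 times higher than Il6ra, whereas Il27ra was 4.94 and 4.37 times higher than Il6st. Among the 9 complete pairs, Il27ra with Il6st and Il7r with Crlf2 were those in which the first of these chains exceeded the other in both libraries, and in the other 7 the chain given first in the plot of pairs was the lower. The third pair with gp130 that passed was interleukin-11, whose chain Il11ra1 was at 3.70 and 5.19 TPM from 36 and 65 reads. This chain has near-identical copies in the mouse genome between which reads can be split, so its level is uncertain, and the pair was incomplete when only protein-coding transcripts were summed. Of the other partners of Il6st, Lifr, Osmr and Cntfr were missing, and Il12rb2 is described below. Lifr was at 0.07 TPM in library 1 with no reads in library 2, and Osmr was at 0.04 TPM in both. Cntfr was without reads, a limit of 0.242 and 0.256 TPM (3 reads, counting error only). The receptors for leukaemia inhibitory factor (LIF) and oncostatin M were incomplete.

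**Figure D2:**
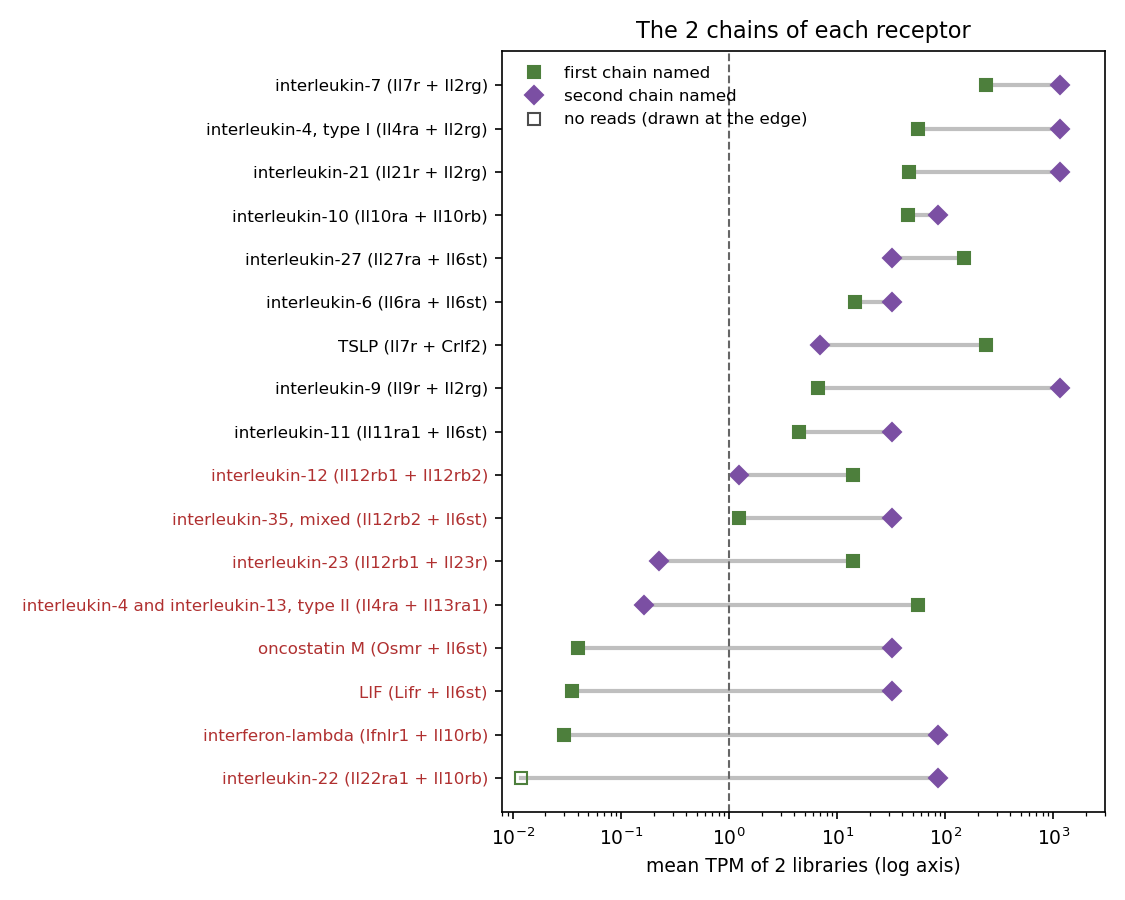
Mean TPM over the 2 libraries, on a log axis, of both chains of 17 receptors, ordered by the scarcer chain, with a dashed line at 1 TPM. Names in black are the 9 complete receptors and names in red the 8 incomplete ones. The interleukin-12 receptor and the mixed interleukin-35 receptor lie just right of the line by their mean and are incomplete because Il12rb2 was below 1 TPM in library 2.

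Il12rb1, the chain shared by the interleukin-12 and interleukin-23 receptors (ENSMUSG00000000791.9, chr8:70808449-70821424, plus strand), was at 12.4 and 15.8 TPM from 387 and 382 reads (14.1 ± 2.37 TPM). Its second chains were scarce. Il12rb2, which completes the interleukin-12 receptor, was at 1.59 TPM in library 1 (exact 95% Poisson interval 1.21 to 2.06) and 0.89 TPM in library 2 (0.605 to 1.26), from 58 and 31 reads, and Il12rb1 was 7.82 and 17.7 times higher. Il12rb2 thus lay on both sides of the threshold. By TPM the interleukin-12 receptor and the mixed interleukin-35 receptor of Il12rb2 and Il6st were complete in library 1, which made 11 complete pairs there, and incomplete in library 2. In the whole-number counts Il12rb2 had 69 and 44, or 119% and 142% of its estimated reads. Both pairs were complete there at 10 counts or more in both libraries, a threshold that is not equal to 1 TPM. Il23r, which completes the interleukin-23 receptor, was at 0.20 and 0.25 TPM from 6 and 7 reads, and this receptor was incomplete in each library.

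The class II chains Il10ra and Il10rb form the interleukin-10 receptor, which regulatory T cells use to hold back inflammation. Il10ra, the private chain (ENSMUSG00000032089.16, chr9:45253837-45269149, minus strand), was at 43.2 and 46.6 TPM from 1848 and 1882 reads (44.9 ± 2.42 TPM). Il10rb, which is shared with the receptors for interleukin-22 and interferon-lambda (ENSMUSG00000022969.13, chr16:91406164-91425834, plus strand), was at 81.7 and 91.85 TPM from 1779 and 1806 reads (86.8 ± 7.20 TPM). The pair was complete, and in TPM Il10rb was 1.89 and 1.97 times higher than Il10ra. The whole-number counts per kilobase turned this direction, with a log2 ratio of Il10ra to Il10rb of 0.03 against -0.95 in TPM. Il10rb lies 574 bases from Ifnar2, a chain of the type I interferon receptor, and overlaps the gene Gm21970 on the same strand, which held 15 and 17 reads.

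The other private partners of Il10rb were missing. Il22ra1 was without reads in either library, a limit of 0.0960 and 0.102 TPM, and Ifnlr1 was at 0.06 TPM from 3 reads in library 1 and had no reads in library 2. The interleukin-22 and interferon-lambda receptors were incomplete. Il20rb, a class II chain that pairs with Il22ra1 or Il20ra, was at 1.56 and 1.83 TPM, whereas Il20ra had no reads.

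Over all 17 pairs, each of which holds at least 1 of the 10 chains, 9 were complete and 8 were not. In 6 of the complete pairs the scarcer chain was at 10 TPM or more in both libraries, namely the receptors for interleukin-4 (type I), interleukin-7, interleukin-21, interleukin-6, interleukin-27 and interleukin-10. Counting only coding transcripts with a membrane-spanning stretch, Il4ra was at 5.30 and 7.20 TPM, and the interleukin-4 receptor was then below 10 TPM. In the TSLP, interleukin-9 and interleukin-11 pairs the scarcer chain was lower. Since all 10 chains reached 1 TPM in both libraries, an incomplete pair could only lack a chain outside the 10. RNA of both chains is not a measure of receptor on the cell surface.

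The 10 levels spanned a range of 44.7 times in library 1 and 30.1 times in library 2. In order of mean TPM they were Il7r, Il27ra, Il10rb, Il4ra, Il21r, Il10ra, Il6st, Il6ra, Il12rb1 and Il9r. Of the 9 neighbouring steps in this order, 3 could not be told apart because the ranges of the libraries overlapped: Il4ra and Il21r, Il21r and Il10ra, and Il6ra and Il12rb1. The widest separated steps were from Il6st to Il6ra, by 1.82 and 2.71 times, and from Il12rb1 to Il9r, by 2.33 and 1.96 times. This order sums all transcripts of a gene. Counting only coding transcripts with a membrane-spanning stretch, Il4ra (mean 6.25 TPM) came between Il12rb1 (7.20) and Il9r (6.13). By that count Il21r (25.9) also lay below Il10ra (44.9).

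The gene levels sum transcripts with different products. Each transcript model was classed by whether its reading frame holds a hydrophobic stretch of 19 residues with a mean Kyte-Doolittle hydropathy of 1.6 or more, leaving out the first 40 residues, where a signal peptide lies. GENCODE M21 gives the 10 genes 46 models. All of the TPM of Il10ra and Il6ra came from coding models with such a stretch, and on average 92.1% of that of Il9r, 86.5% of Il10rb, 81.6% of Il27ra, 73.6% of Il6st and 72.2% of Il7r did. The share was lower for Il21r (56.2%), Il12rb1 (52.0%) and above all Il4ra (10.3% and 11.7% in the libraries). By estimated reads, the share of Il7r was 90.4% and 91.1%, and that of Il4ra was 18.4% and 18.7%. Another 26.0% and 14.6% of the TPM of Il4ra, from 67.9 and 40.5 reads, lay in 2 models with incomplete reading frames. Whether full frames of those models would hold the stretch is not known. Transcript shares are estimates from reads taken to be 50 bases long, a length inferred from the deposited lengths and effective lengths. The best-supported window of Il27ra, at 1.65, was only just above the hydropathy limit. The model Il10ra-203, annotated for nonsense-mediated decay, was assigned 0 reads with deposited posterior SDs of 71.2 and 48.4. The share of Il10ra is therefore uncertain.

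**Figure D3:**
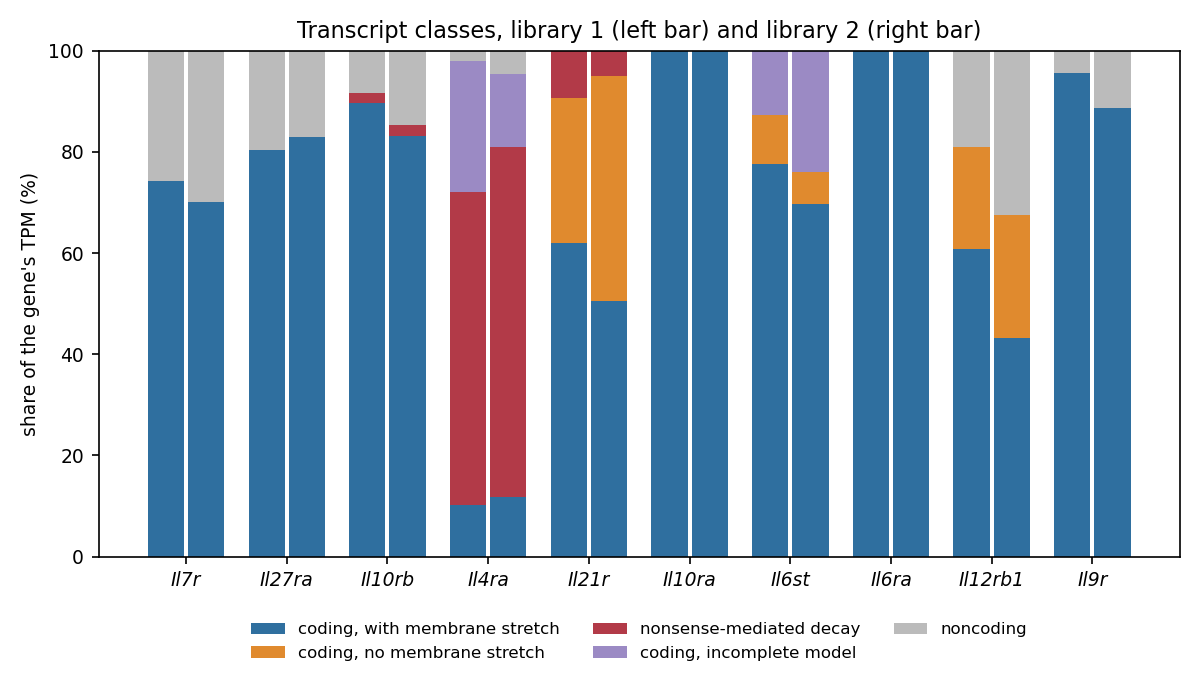
Share of each gene's TPM (percent) in 5 classes of transcript model, with the left bar for library 1 and the right bar for library 2, genes ordered by mean TPM. The model of Il4ra annotated for nonsense-mediated decay takes 61.7% and 69.2%, and models of Il21r and Il12rb1 that code for no membrane stretch take 28.8% and 44.4%, and 20.04% and 24.2%.

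Most RNA assigned to Il4ra was assigned to a model without a membrane stretch. The model Il4ra-205 was at 31.6 and 42.5 TPM, which is 61.7% and 69.2% of the gene's TPM, and it took 1431 and 1814 estimated reads with deposited posterior SDs of 31.05 and 36.0. The full-length model Il4ra-201, of 810 residues, was at 5.30 and 7.20 TPM (10.3% and 11.7%), from 343 and 439 reads with posterior SDs of 28.0 and 34.0. The libraries gave the same order by a wide margin. Il4ra-205 has an extra exon of 114 bases at chr7:125571934-125572047 that puts a stop codon in frame, so its frame ends after 230 residues, before the membrane stretch that starts at residue 234 of the full-length frame. GENCODE annotates it as a target of nonsense-mediated decay, and a splice form of mouse Il4ra that ends before the membrane is known to encode a soluble interleukin-4 receptor. Here is the start of that exon up to the stop codon, with the stop codon in capitals (chr7:125571934-125571953, plus strand, mm10).
Il4ra extra exon: caagtaatgaaaatctgTGA

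The exon is not the only difference between the models. Il4ra-201 also has 1507 bases at its 3′ end and 167 bases at its 5′ end that Il4ra-205 lacks, so reads were shared out between the models by their ends as well as by the exon. Which of these drove the estimate was not tested. Summed over its coding model with a membrane stretch alone, Il4ra was at 6.25 TPM, and the type I interleukin-4 receptor still passed 1 TPM. With both chains counted in this way, the log2 ratio of Il4ra to Il2rg was -7.31, against -4.37 over all transcripts.

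In Il21r and Il12rb1 a coding model skips the exon that carries the whole membrane stretch. Il21r-202 lacks an exon of 97 bases at chr7:125629738-125629834 and codes for 268 residues in place of 529. It was at 11.7 and 23.5 TPM, or 28.8% and 44.4% of the gene, from 304 and 577 reads with posterior SDs of 46.55 and 47.5, while the full-length Il21r-201 was at 25.05 and 26.8 TPM. Most of the higher TPM of Il21r in library 2 was thus assigned to the shorter model, which also lacks 298 bases of the 3′ end. Il12rb1-205 lacks an exon of 97 bases at chr8:70819325-70819421 and codes for 668 residues in place of 738. It was at 2.49 and 3.83 TPM (20.04% and 24.2%) from 83.2 and 121 reads, and its posterior SDs of 37.2 and 43.6 reads are large beside these numbers. The skipped exons are printed because each holds all 57 bases of the membrane stretch, which are in capitals (plus strand, mm10).
Il21r skipped exon: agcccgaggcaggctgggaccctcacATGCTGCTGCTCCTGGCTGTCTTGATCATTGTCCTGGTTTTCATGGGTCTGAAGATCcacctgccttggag
Il12rb1 skipped exon: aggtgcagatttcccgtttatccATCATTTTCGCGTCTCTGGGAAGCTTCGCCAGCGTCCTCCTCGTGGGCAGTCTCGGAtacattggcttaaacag

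The remaining chains held smaller alternatives. Il7r-204, which uses an exon shorter by 17 bases and codes for 286 residues in place of 459 with its membrane stretch kept, took 3.30% and 2.31% of the TPM of Il7r. Its posterior SDs of 133 and 127 reads are large beside its 339 and 228 estimated reads. Noncoding models of Il7r took 27.8% of its TPM on average, but 9.61% and 8.92% of its estimated reads. Il6st-206, of 164 residues against 917 in full-length gp130, took 9.78% and 6.34% of the TPM of Il6st. The short incomplete model Il6st-205 took 12.6% and 24.0% of its TPM from 12.1 and 28.1 reads. The 2 models of Il6ra both keep the membrane stretch, took 79.85% and 78.2% (Il6ra-201) and 20.15% and 21.8% (Il6ra-202), and differ mainly by 5265 bases of the 3′ end. For 9 of the 10 genes the libraries had the same leading model by TPM. The exception was Il9r, led by Il9r-205 in library 1 (49.1%) and by Il9r-202 in library 2 (53.6%), models whose frames of 468 and 469 residues both keep the membrane stretch. By estimated reads Il9r-205 led in both libraries, with 73.5% and 61.3% of the gene. Il9r-202 had 33.7 and 86.4 estimated reads with posterior SDs of 14.6 and 15.8.

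The reads of the 10 genes were then compared between the libraries with an exact two-sided binomial test over all genes, adjusted by Benjamini-Hochberg at 0.05. This compares 2 technical libraries, not conditions, and it treats reads as independent, so its p-values cover counting error only. Of 17271 genes tested, 24.3% differed, 11.6% with more reads in library 1 and 12.7% with more in library 2. Of the 10 chains, 6 differed, 4 of them higher in library 2 and 2 higher in library 1. Their differences were small: the median absolute log2 ratio was 0.16 over the 10 chains and 0.23 over all tested genes.

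Il4ra had the largest log2 ratio of the 10 chains, at 0.38 (adjusted p = 3.81e-15, exact binomial test), which lies above the 95th percentile (0.30) of genes with 3000 to 10000 summed reads. The other 9 chains lay between the 5th and 95th percentile of genes of similar read number. Of the 10 chains, 3 (Il10ra, Il10rb and Il12rb1) lay between the 25th and 75th percentile of such genes. Il21r (log2 ratio 0.33), Il27ra (0.17) and Il6st (0.16) were also higher in library 2, with adjusted p of 2.75e-07, 1.38e-06 and 0.0072 by the exact test. Il7r (-0.11, adjusted p = 1.09e-05) and Il6ra (-0.21, adjusted p = 0.024) were higher in library 1 by the same exact test. Il9r (0.33), Il10ra (0.07), Il10rb (0.06) and Il12rb1 (0.02) did not pass, with adjusted p from 0.073 to 0.96 (exact binomial test). With an added dispersion of 0.01, edgeR's exact test called none of these 6 differences, 0 of the 10 chains and 492 genes in all.

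**Figure D4:**
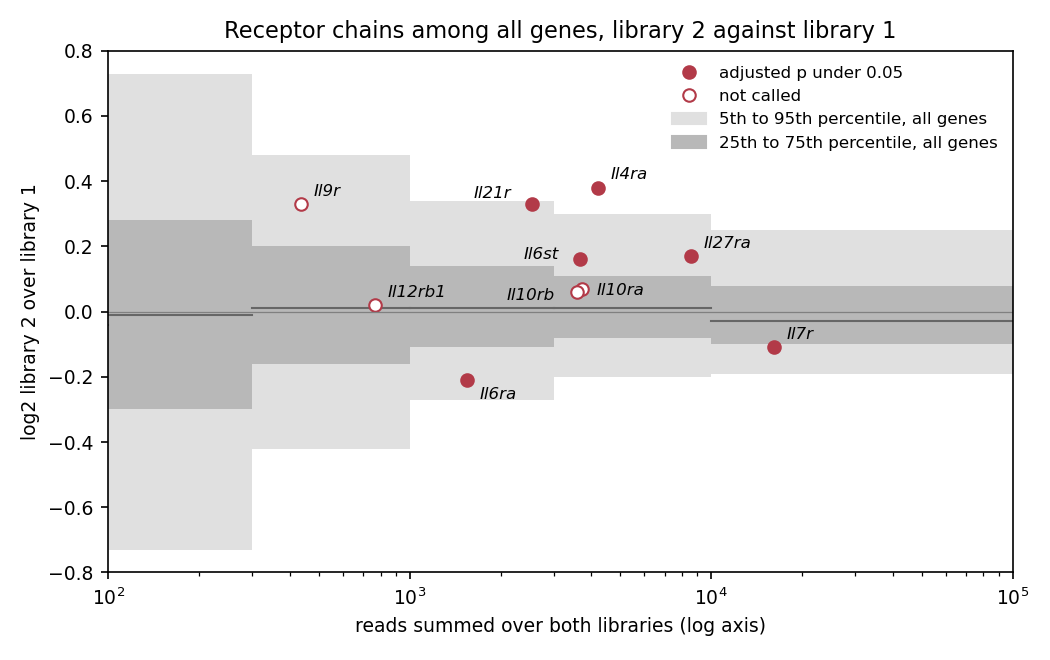
Log2 ratio of library 2 over library 1 against the reads summed over both libraries (log axis) for the 10 receptor chains, with filled points for an adjusted p under 0.05. The grey bands give the middle of all tested genes in classes of read number, and Il4ra at 0.38 is the point above the outer band.

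Levels in TPM moved otherwise than reads in several chains, since TPM divides reads by the deposited effective length of a gene, which differed between the libraries. Il12rb1 had 387 and 382 reads, a log2 ratio of 0.02, but its TPM was higher in library 2 by 0.34 on the log2 scale, with effective lengths of 2508 and 2067 bases. For Il6st the log2 ratios were 0.16 in reads and 0.37 in TPM, with effective lengths of 5019 and 4439 bases. Il9r gave 0.33 in reads and 0.60 in TPM, with 2961 and 2532 bases. Il7r was lower in library 2 by reads (-0.11) and level by TPM (0.02), with 2871 and 2686 bases. Among the partner chains, Il2rg (log2 ratio 0.19, adjusted p = 1.72e-39) and Il11ra1 (0.89, adjusted p = 0.017) had more reads in library 2 and Il12rb2 (-0.85, adjusted p = 0.038) more in library 1 by the exact binomial test.

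For the same libraries, a further deposited table holds whole-number counts on GENCODE M4, with totals of 3478224 and 3475360. The receptor chains held between 17.7% (Il10rb) and 62.6% (Il12rb1) of their estimated reads there, and the median over 8548 genes was 40.3%. Il4ra had 923 and 1146 counts, 49.3% of its estimated reads on average, and Il7r had 1941 and 1880, or 23.7%. Its median was 36.0% among genes with under 0.1 estimated reads per base of transcript, 44.8% from 0.1 to 0.3 and 44.9% from 0.3 to 1. Above that it was lower, at 35.6% from 1 to 3, 16.7% from 3 to 10 and 1.92% at 10 or more. Il2rg, at 12.8 and 14.3 reads per base, had 702 and 714 counts, or 3.44%.

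The ratios of the chains therefore differed between the tables. Per kilobase of the deposited gene length, the whole-number counts of Il2rg were 460 and 469, against 665 and 687 for Il7r, 310 and 346 for Il4ra, and 284 and 350 for Il21r. Il7r was thus above Il2rg in 1 table and below it in the other, while Il4ra and Il21r were below it in both. Il10ra was at 181 and 187 counts per kilobase and Il10rb at 174 and 185. The sources used here do not say how these counts were filtered, and the cause of the difference was not tested.

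**Figure D5:**
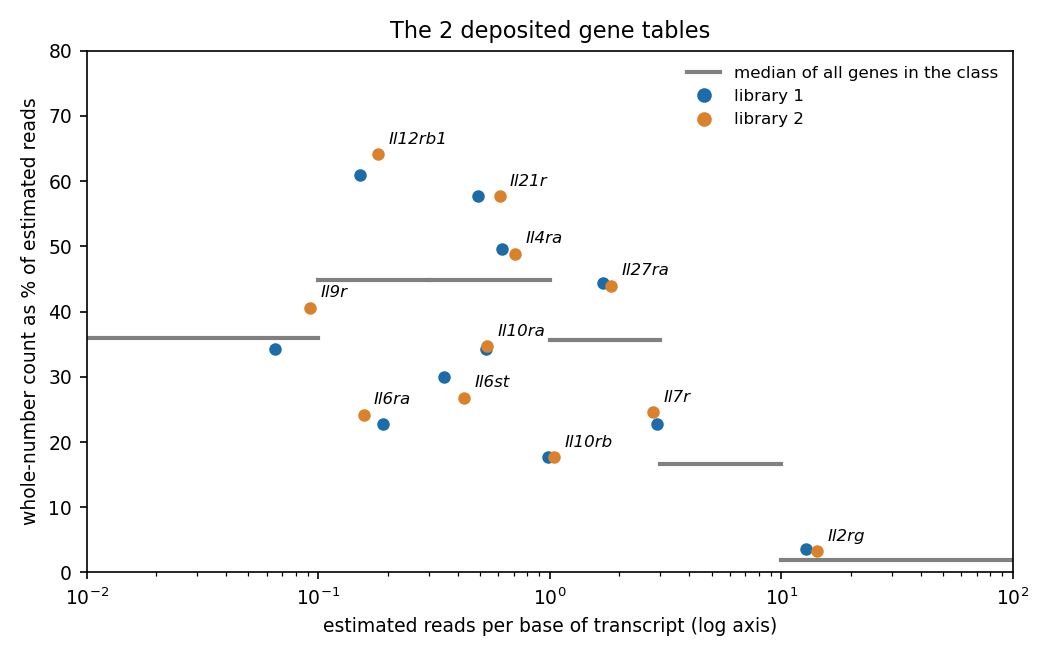
Whole-number count as a percentage of the estimated reads of the same gene, against estimated reads per base of transcript (log axis), for the 10 receptor chains and Il2rg in each library, with grey bars for the median of all genes in a class of read density. The chains lie between 17.7% and 64.1%, and Il2rg lies at 3.59% and 3.29%.

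The machinery downstream of the chains was expressed in full. All 11 Janus kinases and STATs of the list reached 10 TPM in both libraries, among them Jak1 (256 and 260 TPM) and Stat4 (118 and 113 TPM), with Jak3, the kinase bound by the common gamma chain, lowest at 14.0 and 14.85 TPM. All 15 inhibitors of the list reached 1 TPM, led by the phosphatase CD45 (Ptprc, 986 and 1018 TPM), the phosphatase Ptpn6 (104 and 128 TPM) and Pias1 (108 and 104 TPM). Socs1, an inhibitor of Janus kinases, was at 3.50 and 4.09 TPM and Socs5 at 4.29 and 3.36 TPM, so that Socs1 was lowest in library 1 and Socs5 in library 2. The proteases Adam10 (58.7 and 55.6 TPM) and Adam17 (42.05 and 47.7 TPM), known to shed the interleukin-6 receptor from the membrane, were both expressed.

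Most other class I chains were not expressed, whereas the interferon receptor chains of class II were. Of 15 other class I chains, 2 reached 1 TPM in both libraries, Crlf3 (128 and 114 TPM) and Il3ra (6.40 and 4.98 TPM). Of 7 other class II chains, the 4 interferon receptor chains Ifngr1 (337 and 330 TPM), Ifnar1 (65.7 and 63.9 TPM), Ifnar2 (36.4 and 36.4 TPM) and Ifngr2 (15.6 and 18.6 TPM) reached 10 TPM, and Il20ra, Il22ra2 and F3 had no reads. Of 17 ligands of the pairs, 5 reached 1 TPM in both libraries. Ebi3, a subunit of interleukin-27 and interleukin-35, was at 39.8 and 35.5 TPM, Osm at 13.6 and 13.2 TPM, Il10 at 10.4 and 12.1 TPM, Il4 at 6.69 and 3.59 TPM, and Lif at 2.21 and 2.96 TPM. Il27, the partner of Ebi3 in interleukin-27, was at 0.08 TPM from 1 read in library 1 and had none in library 2, and Il12a, its partner in interleukin-35, had no reads in either library. Of these 5 ligands Il10 and Il4 had a complete receptor in the same RNA, whereas the receptors for Osm and Lif lacked Osmr and Lifr.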

How the data were processed

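Polyadenylated RNA of 2 technical libraries of 1 biological sample was analysed as 1 group. The authors deposited expected counts (estimated reads) per gene and transcript, TPM, and isoform percent (how much of a gene's TPM each transcript takes), per the file headers, on mm10 with GENCODE M21 from alignments to the transcriptome, per the deposited file listing. They also deposited a whole-number count per gene on GENCODE M4, of whose 22457 rows 22195 matched M21. The sources used here do not state the tools, filters or strandedness, and overlapping genes are therefore uncertain.

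TPM was used as deposited. Expected counts were rounded to whole numbers. Rows that name no gene held 0.142% and 0.186% of reads and were left out of totals. A gene counted as expressed, and a pair as complete, at 1 TPM or more in both libraries. Genes with 10 or more summed reads were compared between the libraries, given their totals, by an exact binomial test (two-sided, doubling the smaller tail), with Benjamini-Hochberg adjustment over all tested genes, after the script was tested on simulated data. Log2 ratios of reads add 0.5 to each count. No model with replicate error can be fitted with 1 library on each side. Reading frames and sequences came from GENCODE M21 transcripts. Intervals and limits of 3 reads cover counting error only.

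The 10 genes, the 17 pairs and the gene lists were chosen with earlier results of these data known. Named were the 10 chains, their partners and, from each other list, at least the 3 highest, the lowest and genes without reads, some of which are not reported here; other cell type markers are given as counts with a few names. Alternatives were other thresholds, transcript subsets, scalings and the M4 counts. Software was Python 3.11.15, numpy 2.4.6, pandas 2.3.3, scipy 1.17.1, matplotlib 3.10.9, R 4.3.3, edgeR 4.0.16 and DESeq2 1.42.0.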

Additional observations from a re-analysis of the deposited data

How the results depend on the processing

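The count of expressed chains was 10, and 9 at a threshold of 10 TPM. The count of complete pairs, 9, ran from 6 (10 TPM) to 11 (0.5 TPM, or library 1 alone). The pairs that changed were interleukin-11, interleukin-12 and mixed interleukin-35, and at 10 TPM also TSLP and interleukin-9. Leaving out 1 library gave a median level of the chains of 41.9 and 49.8 TPM. That median, 45.8 TPM, moved to 58.5 with TPM rescaled over nuclear protein-coding genes, 38.0 with protein-coding transcripts and, in an alternative added after seeing the data, 24.9 with transcripts holding a membrane stretch. The second-named chain was higher in 7 of 9 complete pairs under every setting run on the M21 tables. With the M4 counts per kilobase, also added after seeing the data, it was higher in 5: the log2 ratio of Il7r to Il2rg became 0.54 and that of Il10ra to Il10rb 0.03.

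The count of genes that differed between the libraries, 4198, fell to 492 with edgeR's exact test at a dispersion of 0.01 and to 1092 with the M4 counts. Of the 10 chains, 0 and 2 (Il4ra and Il21r) were then called instead of 6, and the log2 ratio of Il6st became -0.04 with the M4 counts. No paired analysis was possible because there is 1 group. Il12rb2, with 58 and 31 reads, lay above 1 TPM in library 1 and below it in library 2. Transcript shares rest on reads of an inferred length of 50 bases and are estimates. The cause of these changes was not tested.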
